A study of Mus musculus with 2 samples.

Results

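The cytosolic ribosomal protein genes encode the proteins of the large (Rpl) and small (Rps) subunits of the ribosome. They were chosen by gene symbol alone, as symbols of the form Rpl or Rps followed by a number, plus Rplp0, Rplp1, Rplp2 and Rpsa, with at least 20 unique molecular identifiers (UMIs, each 1 captured RNA molecule) over both libraries. Of 83 matching symbols, 82 passed, 50 of the large and 32 of the small subunit, among 20354 genes with that minimum and 32285 genes counted. The symbol that did not pass, Rpl10l, had 0 UMIs. All 82 are annotated as genes in the GRCm38 build and lie on 19 chromosomes, with 4 on X.

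The data are 10x 3′ single-cell RNA-seq of mouse embryonic brain in 2 libraries. The NTD library came from embryos whose dams ate a low-folate diet and received methotrexate (MTX), a folate antagonist, at 1.5 mg/kg into the abdominal cavity on gestational day 7.5. Embryos of such dams were described as delayed, small, and mainly malformed in the hindbrain or with spina bifida, scored at E9.5 to E10.5. The control library is labelled with normal saline, with closed neural tubes at that stage. The labels give neither the diet of the saline dams, the age at which tissue was taken, the strain of the embryos nor the number pooled. With 1 library per condition there is no test and no p-value anywhere below. Intervals are 95% and cover counting error only, so every difference is one between 2 libraries, in which treatment, embryo and library preparation cannot be told apart.

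Ribosomal proteins assemble with ribosomal RNA in near-equal numbers, and the many unlinked genes that encode them are transcribed at high rates in growing cells. Their mRNAs begin with a C followed by a run of pyrimidines, the 5′ terminal oligopyrimidine (TOP) motif, through which mTOR signalling and the RNA-binding protein Larp1 set how strongly they are translated. In the embryo, partial loss of single ribosomal proteins gives tissue-restricted defects of the skeleton, pigment, blood and neural tissue, and unassembled Rpl5 and Rpl11 bind Mdm2 and raise p53. All of this is background and none of it is a measurement here.

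To show pyrimidine runs near the start of members on which the results turn, 30 bases around the transcription start listed by RefSeq (GRCm38.p6; 10 bases before the start and 20 from it on) are given 5′ to 3′ on the gene's strand, with the longest pyrimidine run in capitals. Rps27 (chr3:90213629-90213658, minus strand), Rpl38 (chr11:114668570-114668599, plus), Rpl39 (chrX:37085203-37085232, minus) and Rps12 (chr10:23787190-23787219, minus) had some of the highest NTD-to-control ratios below. Rpl35 (chr2:39005112-39005141, minus) was chosen after its sequence was seen, for its long run, and Rps6 (chr4:86857348-86857377, minus) encodes the protein phosphorylated downstream of mTOR. Rps2 (chr17:24720053-24720082, plus) and Rpl7l1 (chr17:46782637-46782666, minus) had the lowest ratios. The listed start need not be the one used in these cells.
Rps27: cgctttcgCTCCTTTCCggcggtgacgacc
Rpl38: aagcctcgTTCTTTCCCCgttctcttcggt
Rpl39: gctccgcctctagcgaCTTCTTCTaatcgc
Rps12: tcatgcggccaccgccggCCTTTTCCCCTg
Rpl35: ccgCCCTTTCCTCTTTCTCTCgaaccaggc
Rps6: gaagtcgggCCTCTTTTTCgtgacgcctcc
Rps2: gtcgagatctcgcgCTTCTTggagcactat
Rpl7l1: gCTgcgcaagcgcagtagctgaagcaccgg

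The runs are 9 bases in Rps27, 10 in Rpl38, 8 in Rpl39, 11 in Rps12, 18 in Rpl35, 10 in Rps6, 6 in Rps2 and 2 in Rpl7l1. They span the listed start in Rps27, Rpl38, Rpl35 and Rps6. They begin 6, 8 and 4 bases after it in Rpl39, Rps12 and Rps2 and lie before it in Rpl7l1, so in these 4 genes the capitals mark no TOP motif at the listed start. The RefSeq promoter table held 62 of the 82 members. Of these, 31 (50%) had a run of at least 8 pyrimidines (C or T, on the gene's strand) between 20 bases before and 30 after the listed start, against 18.8% of all 27025 genes in the table. The motif CCGGAAGT, searched on both strands of the 300-base promoter, was in 12 of 62 members (19.4%) and in 4% of all genes. It is a motif that ETS-family factors can recognise. For 10 members with more than 1 listed start, the first was used.

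Barcodes numbered 18572 in the control and 19056 in the NTD library, with medians of 2234 and 2456 UMIs. The 2 libraries shared 105 barcode sequences. The shallowest barcode held 1027 UMIs in the control and 1589 in the NTD library. After removal of candidate doublets, 15702 and 16126 barcodes formed 24 clusters, of which some were named from marker genes into 10 classes, and 8 classes had at least 100 cells in each library. Different clusters hold most of a class in each library. Progenitor-like cells were 734, 1318 and 556 control cells and 2625, 1059 and 1643 NTD cells in clusters 1, 3 and 4, and mesenchyme-like cells of the control were largely clusters 9 and 14, which held 9 and 13 NTD cells. Clusters 15 and 6, led by genes such as Tbx5 and by Wt1 and Gata4, held 912 and 1474 control but 4 and 83 NTD cells, and a liver-like cluster held 135 and 4, so the control library holds cells with markers of tissues other than brain, which its label does not name. Xist, the RNA of the inactive X chromosome of female cells, stood at 143 CPM (a gene's counts scaled to a fixed total of UMIs per class and library) in control and 840 CPM in NTD progenitor-like cells. The 4 X-linked members, Rpl10, Rpl36a, Rpl39 and Rps4x, had log2 ratios of NTD over control of 0.35, 0.67, 0.85 and 0.40 in these cells, within the range of the other members. The part of sex and of tissue sampled in the results was not tested.

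Ribosomal protein genes took a larger share of UMIs in the NTD than in the control library in each of the 8 named classes. Neural progenitor-like clusters 1, 3 and 4 were named on 4, 6 and 3 passing markers, with Pax6 and Msi1 in all. Hes5 passed in clusters 3 and 4 only, and Sox2, Sox1, Sox3, Nes, Vim and Fabp7 of the same list in none. In neural progenitor-like cells the share was 8.93% (8.91 to 8.95) in 2608 control cells and 13.26% (13.24 to 13.28) in 5327 NTD cells. The difference was 4.33 percentage points, or 1.49-fold. In neuron-like cells (Dcx, Stmn2, Elavl3) the share was 7.31% in 1473 control and 12.29% in 2240 NTD cells, which was the lowest value of the 8 classes in each library.

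The other classes showed the same order of libraries. Mesenchyme or fibroblast-like cells stood at 8.25% and 12.83%, and epithelium or surface ectoderm-like cells at 8.36% and 13.47%. Endothelial-like cells stood at 8.14% and 12.94%, and floor plate-like cells at 8.47% and 12.63%. The class of neural crest or Schwann precursors had 7.82% and 13.20%. Erythroid-like cells, which shed most of their mRNA as they mature, had the highest share in both, at 10.91% and 17.14%. This class of 331 control and 156 NTD cells is mixed: at clustering resolution 2 a cluster of 191 and 108 cells was erythroid-like, and another of 143 and 49, with top genes shared with this class such as Gm2245 and F630028O10Rik, was macrophage or microglia-like. Among these 8 named classes the highest control value lay below the lowest NTD value. The classes of a library are parts of that 1 library and no independent points. The order does not extend to unnamed clusters: clusters 0 and 10 of the control, described below, stood at 19.49% and 19.07%, above each of these NTD classes.

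**Figure D1:**
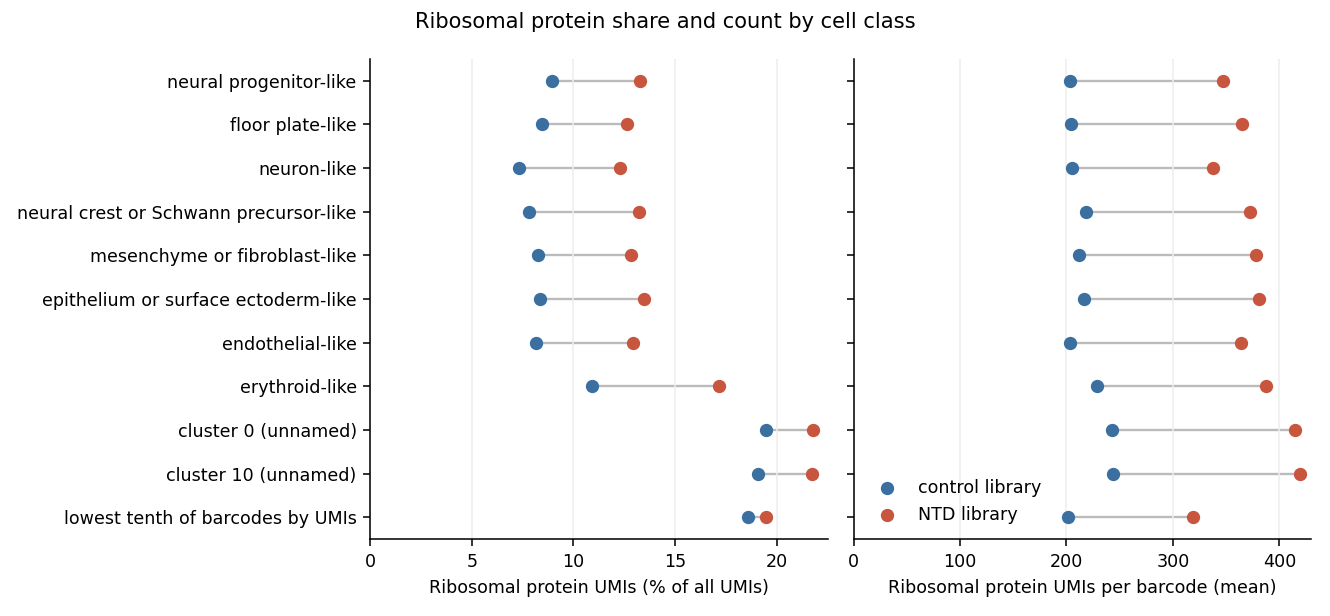
Share of UMIs from ribosomal protein genes (left, % of all UMIs) and mean ribosomal protein UMIs per barcode (right) for 8 named classes, the unnamed clusters 0 and 10 and the lowest-UMI barcodes, 1 point per library. In the named classes the control points lie at 7.31% to 10.91% and the NTD points at 12.29% to 17.14%, while the lowest-UMI barcodes lie at 18.60% and 19.46%.

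The spread among cells within a library was wide. In progenitor-like cells the median cell had 9.38% in the control and 13.90% in the NTD library. The 5th to 95th percentiles ran from 6.12% to 13.41% in the control and from 9.79% to 18.04% in the NTD library, so single cells of the libraries overlapped. These percentiles describe cells of 1 library each and are no replicate error.

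The barcodes with the fewest UMIs had higher shares. The 10% of barcodes with the fewest UMIs held 1027 to 1175 UMIs in the control (1857 barcodes) and 1589 to 1698 in the NTD library (1906 barcodes). Their ribosomal protein share was 18.60% in the control and 19.46% in the NTD library, above the value of every named class in each. The difference between libraries, 0.863 points here, depended on where the line was drawn: it was 0.361 points for the lowest 5% (19.39% and 19.75%) and 2.15 points for the lowest 20% (16.24% and 18.39%). The unnamed clusters 0 and 10 supplied most of them, with 1271 and 330 of the control and 889 and 229 of the NTD barcodes. The progenitor-like clusters 1, 3 and 4 supplied 15, 33 and 45 control and 152, 48 and 156 NTD barcodes, so the 2 sets share a few barcodes. Clusters 0 and 10 had top genes of several tissues, such as Afp, Apoa1 and Nefm in cluster 0. The best marker match of each was erythroid, with 7 haemoglobin genes. No haemoglobin gene was among the 10 top genes of either, while liver or yolk sac markers were, so these clusters stayed unnamed. Their shares were 19.49% and 19.07% in the control and 21.79% and 21.73% in the NTD library.

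Counted per barcode, ribosomal protein UMIs were nearly constant across classes within a library. The 8 classes had means of 204 to 228 UMIs per cell in the control and 337 to 388 in the NTD library. The lowest-UMI barcodes had 201 and 319, and cluster 0 had 243 and 415. The UMIs of all other genes varied far more: progenitor-like cells had 2079 and 2271 per cell, and the lowest-UMI barcodes 880 and 1320.

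Haemoglobin RNA, which only erythroid cells make, gives a measure of free RNA in the droplets. Progenitor-like cells, which should lack it, had 1.31% of their UMIs from it in the control and 1.35% in the NTD library. In the control, the non-erythroid classes held 6.44 to 7.02 ribosomal protein UMIs for each haemoglobin UMI, and the lowest-UMI barcodes 6.23. In the NTD library these ratios were 8.30 to 10.45 and 9.45. Within each library the ratio thus moved little between classes and lowest-UMI barcodes, and it fell to 2.80 and 4.14 in erythroid-like cells. The part of free RNA in the difference between libraries was not tested.

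The share fell with the depth of the cell, and the libraries kept their order in each band of depth. In progenitor-like cells of at least 1000 and under 1600 UMIs it was 11.72% in 595 control cells and 16.53% in 27 NTD cells. In cells of at least 2000 and under 2500 UMIs it was 9.11% and 14.46%. In those of at least 5000 UMIs it was 6.0% in 61 control and 8.48% in 148 NTD cells. The count per cell rose over the same bands, from 160 to 376 in the control and from 263 to 585 in the NTD library. Thinned to 1589 UMIs per cell, with 577 shallower control cells left out, progenitor-like cells stood at 8.91% and 13.91%.

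**Figure D2:**
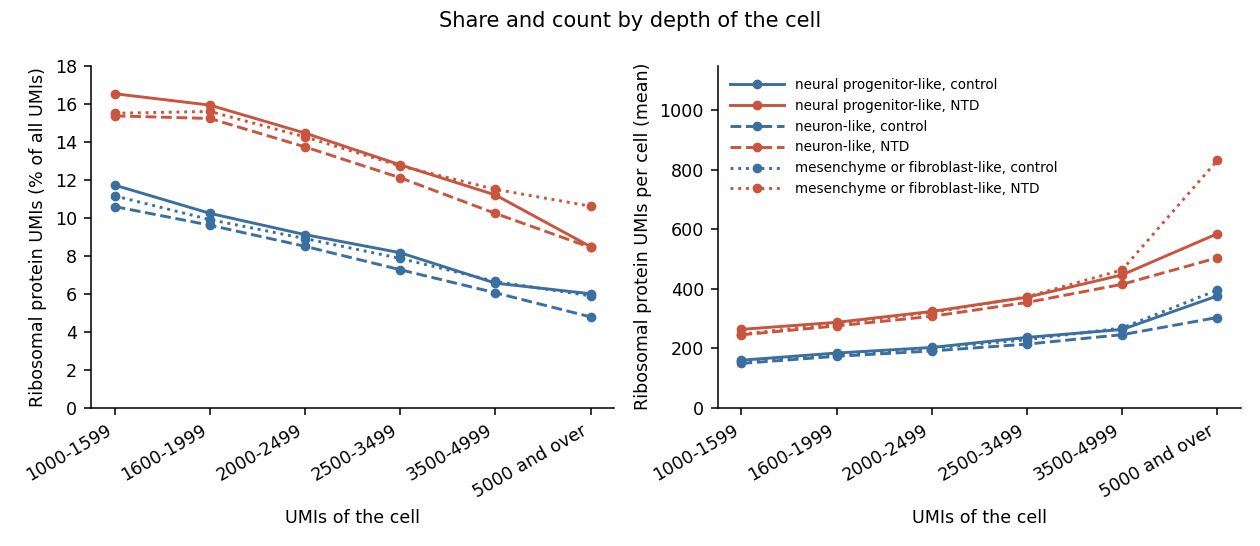
Ribosomal protein share (left, % of UMIs) and ribosomal protein UMIs per cell (right, mean) by UMI count of the cell, for progenitor-like, neuron-like and mesenchyme or fibroblast-like cells, with control in blue and NTD in red. In progenitor-like cells the share falls from 11.72% to 6.0% in the control and from 16.53% to 8.48% in the NTD library, with NTD above control in each band.

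Member by member, the NTD library was higher for nearly the whole set. Of the 80 members with at least 20 UMIs in progenitor-like cells, 78 were at least 1.2-fold higher in NTD by CPM, where 15.5% of all 15828 genes measured in these cells passed that fold. None was 1.2-fold lower, against 41.5% of all genes. The median log2 ratio of NTD over control was 0.60 for the members and -0.19 for all measured genes. At 1.5-fold, 43 members passed, against 4.86% of all genes. Since shares sum to a whole, scaling moves both values. TMM scaling, which centres most genes on 0, added 0.18 to each ratio in progenitor-like cells, and the share of higher genes among all those past 1.2-fold then went from 27.2% to 53%. The members stood 0.78 above the median of all genes under either scaling, which is fixed, since TMM adds the same amount to every gene.

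In neuron-like cells 80 of 80 measured members passed 1.2-fold (21.3% of all genes) with a median of 0.77. In mesenchyme or fibroblast-like cells 79 of 80 passed (17.3%), with 0.67, and in epithelium or surface ectoderm-like cells 80 (20.4%), with 0.71. Endothelial-like cells had 78 (21%), erythroid-like cells 77 (22.3%) and floor plate-like cells 79 (19.4%), with medians of 0.70, 0.68 and 0.60. The neural crest or Schwann precursor class had 79 (22.3%), with 0.74. Over all kept cells 79 of 82 passed (14.1%), with a median of 0.62.

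In the low-UMI clusters and barcodes the members' counts lay nearer to the background. Clusters 0 and 10 had 29 members past 1.2-fold each, against 13.3% and 17.3% of all genes, with medians of 0.21 and 0.22. Among the lowest-UMI barcodes 12 of 80 passed, a smaller share than the 27% of all genes, with a median of 0.09. There 47 members had an interval wholly above 0 and 21 wholly below 0. These intervals cover counting error only and are narrow for genes of many UMIs. No such count was made over all genes, so the 2 counts have no background. The lowest-UMI sets differ in depth, with medians of 1072 UMIs in the control and 1637 in the NTD library, and the share falls with depth, so their ratios compare unlike barcodes. Within bands of UMI count the libraries were further apart, but the bands were not alike in depth or in kind of barcode. Over all kept barcodes of at least 1000 and under 1600 UMIs the ribosomal protein share was 15.41% in 4623 control and 19.86% in 197 NTD barcodes. From 1600 to under 2000 UMIs it was 10.87% and 17.76%, a 1.63-fold difference. No NTD barcode held under 1589 UMIs, so the first band is deeper in NTD. Clusters 0 and 10 had medians of 1733 and 1762 UMIs in NTD, inside the second band, but 1123.5 and 1148 in the control, below it. Within these 2 clusters the shares differed 1.12-fold and 1.14-fold. The part of depth and of kind of barcode in these differences was not tested.

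**Figure D3:**
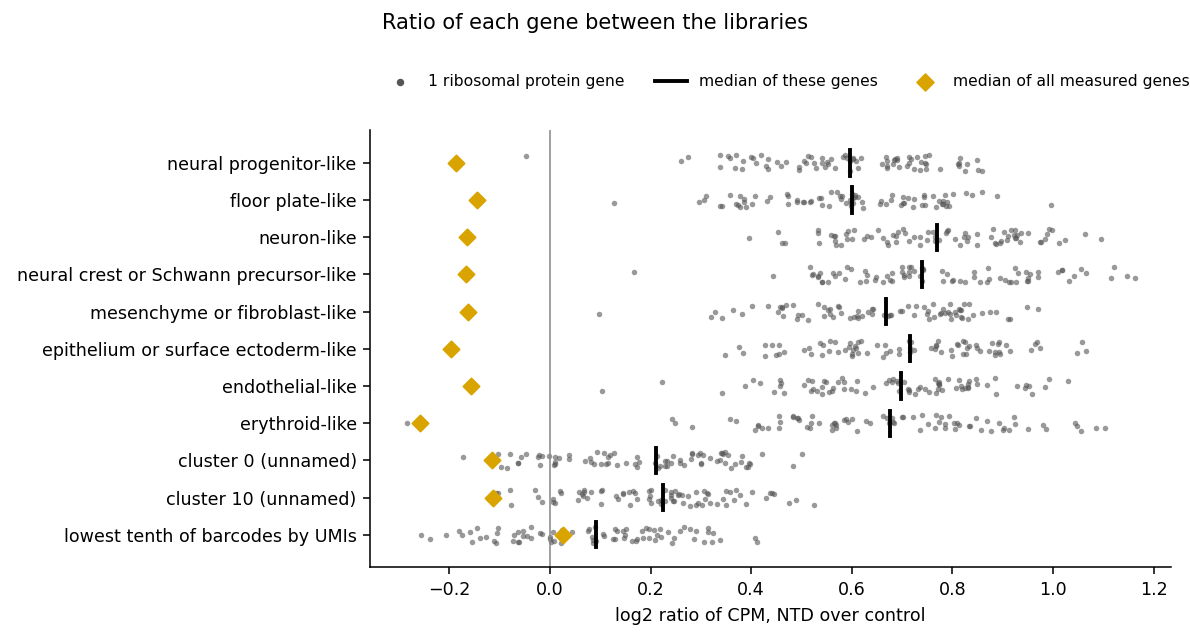
log2 ratio of CPM, NTD over control, for each measured ribosomal protein gene (grey points) in 8 classes, clusters 0 and 10 and the lowest-UMI barcodes, with the median of the members (black bar) and of all measured genes (yellow diamond). In progenitor-like cells the members have a median of 0.60 and all genes -0.19; in the lowest-UMI barcodes they have 0.09 and 0.03.

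Among members with the highest ratios, small proteins prevailed. Rps27, a zinc-binding protein of the small subunit, had 389 CPM in control and 706 in NTD progenitor-like cells, a log2 ratio of 0.86 (0.79 to 0.92). It had 336 and 668 CPM in neuron-like cells and 750 and 999 in the lowest-UMI barcodes. The NTD library was thus higher in all of these, by least in the lowest-UMI barcodes, where the log2 ratio was 0.41.

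Rpl38, whose loss in Tail-short mice alters Hox mRNA translation and the axial skeleton, had 496 CPM in control and 895 in NTD progenitor-like cells, a log2 ratio of 0.85. Rpl39, which lines the peptide exit tunnel, went from 567 to 1021 CPM, also 0.85, and in neuron-like cells from 456 to 954. The other members named for high ratios were Rps25, Rpl37, Rps21, Rpl35a and Rps12, with log2 ratios of 0.81 to 0.83. Rps12, known from flies as a protein through which cells of low ribosomal protein dosage are recognised by their neighbours, was at 1597 and 2803 CPM. Its ratio in the lowest-UMI barcodes was 0.29.

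The lowest ratios belonged to larger proteins. Rpl7l1, a nuclear paralog of Rpl7, had 113 CPM (670 UMIs) in control and 109 CPM (1520 UMIs) in NTD progenitor-like cells, a log2 ratio of -0.05 (-0.18 to 0.09). In neuron-like cells it had 72.5 and 95.5 CPM, a ratio of 0.40. Its interval included 0 in progenitor-like cells and did not in neuron-like cells.

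Rps2, at the mRNA entry of the small subunit, had 2380 CPM in control and 2851 in NTD progenitor-like cells, a log2 ratio of 0.26 (0.23 to 0.29). In the lowest-UMI barcodes it was lower in NTD, at 4523 and 4094 CPM. Rps2 and Rpl7l1 were the 2 measured members that did not reach 1.2-fold in progenitor-like cells. Rpl3, which lies near the peptidyl transferase centre, had 1275 and 1543 CPM in progenitor-like cells, 0.27. Rpl10, which joins the large subunit late in the cytoplasm, had 554 and 708 CPM, 0.35, and in the lowest-UMI barcodes 1303 and 1091, -0.26. Rpl6, Rpl18, Rpl19 and Rplp0 had ratios of 0.34 to 0.37 in progenitor-like cells. The 2 libraries thus change order for several of these genes between progenitor-like cells and the lowest-UMI barcodes.

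By place in the ribosome, the medians of the groups in progenitor-like cells ran from 0.49 to 0.73. The large subunit had a median log2 ratio of 0.60 in progenitor-like cells, with 47 of 48 measured members past 1.2-fold, and the small subunit 0.60, with 31 of 32. The 9 members at the exit tunnel had 0.69 and the 3 stalk proteins 0.73. Within the stalk, which recruits elongation factors, Rplp1 went from 1559 to 2594 CPM and Rplp2 from 668 to 1121, ratios of 0.73 and 0.75, while their anchor Rplp0 went from 1367 to 1764, 0.37. The 9 proteins at the mRNA entry and exit of the small subunit had a median of 0.50, and Rpsa of that group, also known as the laminin receptor, had 1663 and 2344 CPM. The 6 late-joining proteins had 0.49.

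Rpl5 and Rpl11, which with the 5S ribosomal RNA form the particle that binds Mdm2, went from 1095 to 1606 CPM (0.55) and from 1539 to 2074 CPM (0.43). In the lowest-UMI barcodes both had a ratio of -0.05. Members with mutant phenotypes in mice or people spanned the middle of the set. Rpl24, mutated in Belly-spot-and-tail mice, had 890 and 1361 CPM, 0.61. Rps19, the gene most often mutated in Diamond-Blackfan anaemia, had 1056 and 1604, 0.60. Rps20, Rps7, Rps6, Rps14 and Rpl26 had ratios of 0.74, 0.52, 0.46, 0.50 and 0.69.

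The paralogs were of low abundance or followed their parents. Rpl22l1 had 278 and 439 CPM, a ratio of 0.66, and its parent Rpl22, 654 and 1049, 0.68. Rps27l, a p53 target, had 224 and 367 CPM, 0.71. Rpl7l1 stood apart from Rpl7, which had 1412 and 1877 CPM, 0.41. Rpl3l, a form of striated muscle, and Rpl39l, a testis form, stayed under 20 UMIs in progenitor-like cells: Rpl3l had 0 control and 7 NTD UMIs and Rpl39l 4 and 5. Over all barcodes they had 22 and 14, and 14 and 17, and no ratio is given for them.

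Members differed in ratio along the length of their coding sequence. Across the 80 measured members, Spearman's correlation of the log2 ratio in progenitor-like cells with coding length (GENCODE M21) was -0.87 and Pearson's r -0.79, or -0.82 without Rpl7l1. The points share 2 libraries and genes are not independent replicates. Spearman's correlation was -0.88 in neuron-like cells, -0.86 in mesenchyme or fibroblast-like cells and -0.90 in the lowest-UMI barcodes. The 40 members of 138 to 456 coding bases had a median log2 ratio of 0.72 in progenitor-like cells and 0.21 in the lowest-UMI barcodes. The 40 of 468 to 1257 bases had 0.46 and -0.05. Short and long members were thus offset by a like amount in cells and in lowest-UMI barcodes.

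**Figure D4:**
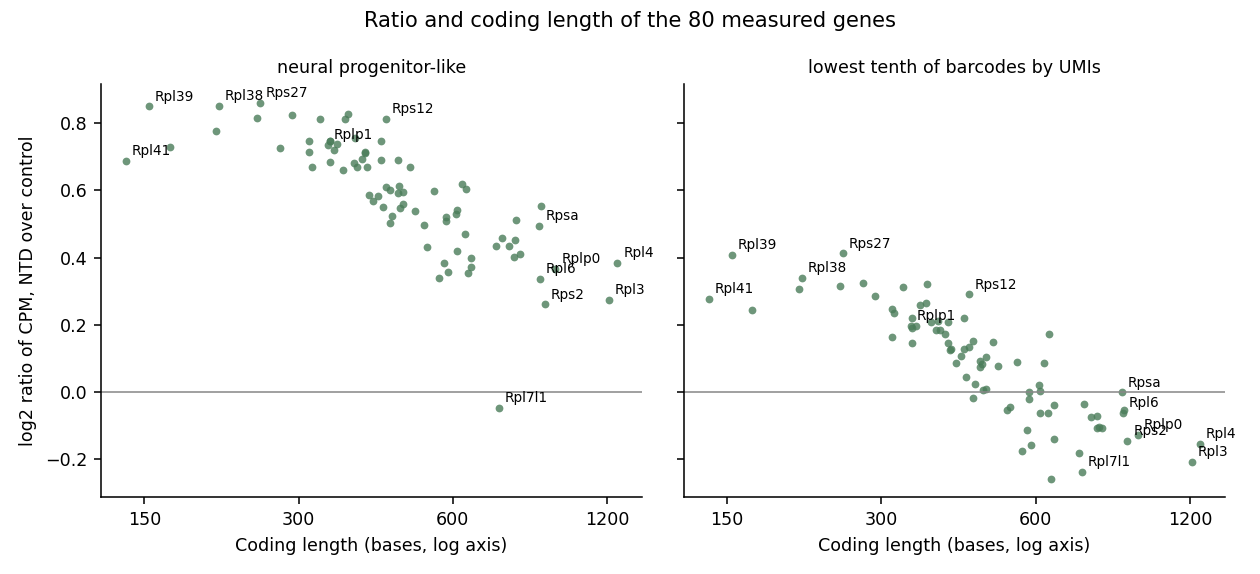
log2 ratio of CPM, NTD over control, against coding length (bases, log axis) for the 80 measured ribosomal protein genes in progenitor-like cells (left) and the lowest-UMI barcodes (right), 1 point per gene. Both panels fall with length (Spearman's correlation -0.87 and -0.90); Rpl7l1 lies below the others on the left.

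The relation was also present outside the set, with weaker correlations. Among 359 other genes of at least 100 CPM and a genomic span under 10 kb, Spearman's correlation was -0.52 in progenitor-like cells, and among 541 such genes it was -0.39 in the lowest-UMI barcodes. Pearson's r was -0.45 and -0.18 in the same order. Span itself tracked the ratio. Other genes of at least 100 CPM in progenitor-like cells had a median of 0.39 under 5 kb (189 genes), and -0.29 above 50 kb (1215 genes). Without the CPM minimum the medians were 0.04 (2082 genes) and -0.29 (4534 genes). Members have a median span of 3400 bp, against 23412 bp for all measured genes, and 64 of 82 span under 5 kb. Members in progenitor-like cells had a median of 0.60, and other genes under 5 kb of at least 100 CPM 0.39. These 2 sets were not matched for coding length or level. The 40 members of longer coding sequence had 0.46, and a list of other short, abundant mRNAs, given below, had 0.50. The part of length and level in the gap was not tested. Whether reads in introns were counted is not given in the sources used here, and its part in the relation with span was not tested.

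Expressed as a share of all ribosomal protein UMIs, the make-up of the set differed between libraries in the same direction in class after class. The share of Rpl3, Rps2, Rpl6, Rpl19, Rpl10a, Rpl18, Rplp0, Rpl9 and Rps4x was lower in NTD with an interval below 0 in 8 of 8 classes. The share of Rpl12, Rps24, Rpl41, Rps15, Rplp1, Rps21, Rps29, Rpl35a, Rps25, Rps12 and Rpl39 was higher in 8 of 8. Rps12, for example, made up 1.79% of ribosomal protein UMIs in control and 2.11% in NTD progenitor-like cells, and 1.77% and 2.07% in the lowest-UMI barcodes. Rps2 made up 2.67% and 2.15%, and 2.43% and 2.10%. The lowest-UMI barcodes thus showed these shifts too. All classes come from the same 2 libraries and the intervals cover counting error only, so 8 of 8 classes is no replication. Coding lengths were 564 to 1209 bases in the group with lower shares and 138 to 495 in the group with higher shares. The 2 groups are thus no result apart from the relation with coding length above. Members of these groups not named elsewhere were chosen after their values were seen.

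Across classes the make-up of the set varied by 1.30-fold at most. Averaged over both libraries, Rpl7l1 varied 1.30-fold across the 8 classes, from 0.0824% of ribosomal protein UMIs in erythroid-like to 0.107% in neural crest or Schwann precursor-like cells, with 82 control and 34 NTD UMIs in the erythroid-like class. Rpl22l1 varied 1.2-fold, from 0.310% in neural crest or Schwann precursor-like to 0.372% in erythroid-like cells, and was highest there in each library, at 0.374% and 0.370%. Rpl14, a large-subunit protein, varied 1.18-fold and Rps27 1.17-fold. Rps21 and Rpl36 varied 1.15-fold and 1.13-fold. The erythroid-like class was at one end for all of these except Rpl36.

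Within each library, members were lower in progenitor-like cells than in the lowest-UMI barcodes. In the control, 80 of 80 were at least 1.2-fold lower (28.5% of all genes), with a median log2 ratio of -1.06, where the median of all genes was 0.50. In the NTD library 79 of 80 were (24%), with a median of -0.55 against 0.30 for all genes. Over the 8 classes the control medians ran from -0.80 in erythroid-like to -1.36 in neuron-like cells, and the NTD medians from -0.20 to -0.66 in the same classes.

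Rpl10 and Rps3, a small-subunit protein at the mRNA entry, were among the members lowest against these barcodes. Rpl10 was at 1303 CPM in the lowest-UMI barcodes and 554 in progenitor-like cells of the control (-1.23), and at 1091 and 708 in the NTD library (-0.62). Rps3 had ratios of -1.22 and -0.61, and Rpl4, Rpl7a and Rps23 had -1.15 to -1.21 in the control and -0.59 to -0.67 in the NTD library. Rpl7l1 was the least lowered, at -0.36 and -0.17. Rps2, Rpl6, Rpl41 and Rps27 came next, at -0.93 to -0.95 in the control and -0.50 to -0.53 in the NTD library. The control ratio was the more negative for each of these 10 members, which were picked by rank. This restates that their NTD-to-control ratio was higher in progenitor-like cells than in the lowest-UMI barcodes, and is no separate result. The lowest-UMI barcodes were also shallower in the control, with a median of 1072 UMIs against 1637 in the NTD library.

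Other RNAs also differed between these barcodes and the cells. Mitochondrially encoded RNA made up 0.400% (control) and 0.247% (NTD) in progenitor-like cells, and 0.633% and 0.311% in the lowest-UMI barcodes. The nuclear RNA Malat1 took 1.23% and 0.945% in progenitor-like cells. In the lowest-UMI barcodes it took 0.485% and 0.461%, close to each other. In clusters 0 and 10 it took 0.394% and 0.396% in the control, and 0.182% in each in the NTD library. The part of these differences in the ribosomal protein values was not tested.

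Genes that work with the ribosome showed smaller median ratios than the members. Fau, a fusion of a ubiquitin-like protein with a small-subunit protein that the symbol rule leaves out, had 1380 and 2048 CPM in progenitor-like cells, a log2 ratio of 0.57. The 9 other genes with TOP mRNAs had a median log2 ratio of 0.48 in these cells, with 8 higher, led by Tpt1 (2043 and 3058 CPM, 0.58) and Vim (0.57). Elongation factors had 0.37, with 4 of 6 higher, such as Eef1b2, at 734 and 1024 CPM. Of all genes measured in these cells 15.5% were higher.

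Initiation factors had a median of 0.29, with 14 of 28 higher and 2 lower. Eif2s3x, a subunit of the factor that brings the initiator tRNA, had 0.65 and Eif3h 0.47. Mitochondrial ribosomal proteins, which build the separate ribosome of mitochondria, had 0.28, with 40 of 78 higher and 3 lower, and Mrpl58 and Mrpl32 were highest of these at 0.67 and 0.61. Ribosome biogenesis factors had 0.01, with 7 of 42 higher, a share near the 15.5% of all genes, and 8 lower, a share under the 41.5% of all genes, from Nop10 at 0.72 to Utp20 at -0.52. All of these medians lay above the -0.19 of all measured genes.

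Upstream regulators, among them Myc family members, mTOR pathway genes and Larp1, had a median of -0.17, with 2 of 16 higher and 6 lower, shares near the 15.5% and 41.5% of all genes. Mycl had 22.5 and 34.9 CPM (0.63), and Rptor, the scaffold of mTOR complex 1, had 191 and 132 (-0.53). Genes of the p53 and 5S checkpoint had a median of 0.13, with 4 of 13 higher and 1 lower. They included Rps27l at 0.71 and the p53 inhibitor Mdm4 at -0.34. Of 8 measured integrated stress genes 2 were higher, with a median of 0.10, and Ddit4 went from 9.74 to 28.5 CPM (1.54).

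**Figure D5:**
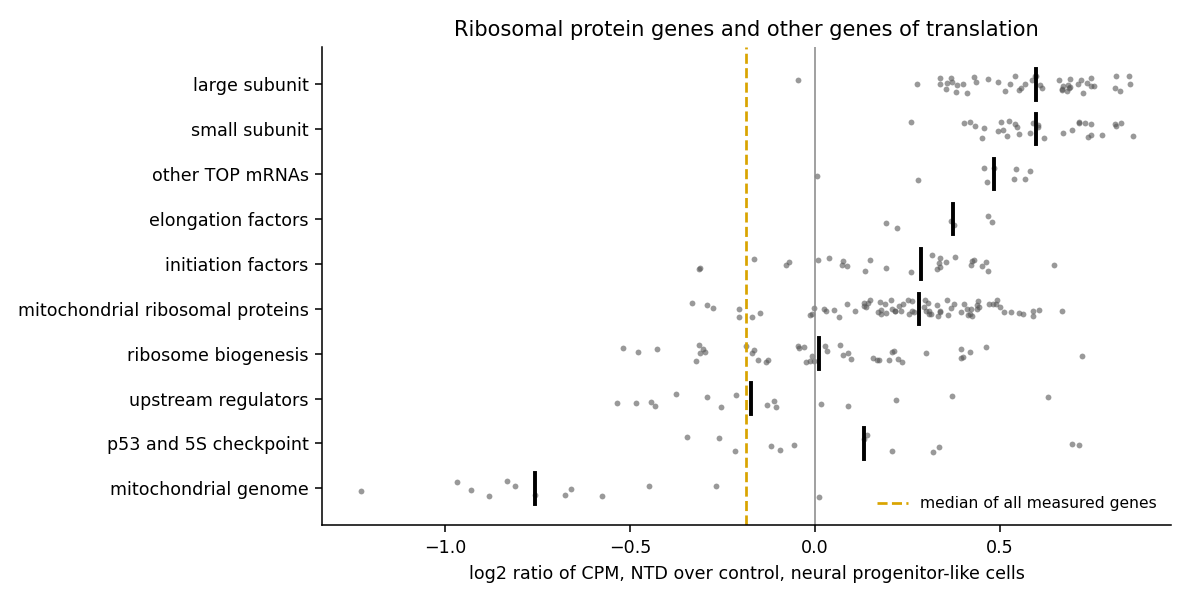
log2 ratio of CPM, NTD over control, in progenitor-like cells for each measured gene (grey points) of 10 lists, with the list median (black bar) and the median of all measured genes (yellow dashed line). The subunit lists centre on 0.60, mitochondrial ribosomal proteins on 0.28, ribosome biogenesis on 0.01 and mitochondrially encoded genes on -0.76.

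Lists outside translation showed how far such ratios reached. Of all genes measured in progenitor-like cells, 15.5% were higher and 41.5% lower by the same 1.2-fold rule. Other short, abundant mRNAs had a median of 0.50 in progenitor-like cells, with 28 of 31 higher, such as Tmsb4x (1969 and 3228 CPM, 0.71) and Hmgn2 (0.70). Stress and dissociation genes had 0.19, with 5 of 10 higher and 3 lower, among them Jun at 0.51 and Dnajb1 at 0.55. The 3 lower genes, Egr1, Atf3 and Junb, had -0.95, -0.67 and -0.57, on 9 to 46 UMIs per library with intervals that include 0, and are named after their values were seen. Nuclear retained RNAs had -0.38, with 2 of 9 higher and 5 lower, Xist being the highest at 2.56 and Snhg11 at -0.63. Mitochondrially encoded genes had -0.76, with 12 of 13 lower, such as mt-Cytb at -0.97. Haemoglobin genes had 0.12, with 2 of 7 higher, and Hbb-bs, an adult form, at 1.14. The counts for stress, nuclear retained and haemoglobin genes rest on few genes and are not read as results about these lists.

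In the lowest-UMI barcodes, where members had a median of 0.09, the other TOP genes had 0.04, elongation factors -0.17, initiation factors -0.13 and mitochondrial ribosomal proteins -0.01. Ribosome biogenesis factors had -0.09. The other short, abundant mRNAs had 0.00. As above, these ratios set control against deeper NTD barcodes. Mitochondrially encoded genes had -1.04 and haemoglobin genes -0.45.

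The genes whose log2 CPM most resembled the summed members over 8 classes in 2 libraries (16 points, 837 genes compared) were Tpt1 and Fau, with Pearson's r of 0.998 each, then Naca and Eef1b2 with 0.996 and Ptma with 0.995. The 16 points share libraries and depth, so this is a description. Near-identical copies of members were counted too. Over all kept cells Rpl36al, a functional copy of Rpl36a, had 13172 UMIs in the control and 23238 in the NTD library (369 and 554 CPM). Pseudogenes and other copies had fewer. Rpl10-ps3 had 635 in the control and 1210 in the NTD library, Rps27rt 458 and 1079, and Rpl9-ps6 1159 and 2143. The annotation lists 300 ribosomal protein pseudogenes of this kind, of which 5 were counted. Reads of members such as Rpl10, Rps27 and Rpl9 may therefore be split with, or lost to, copies, and 21 members overlap a counted gene on the other strand and Rpl19 overlaps Gm11629 on the same strand.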

How the data were processed

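The deposited matrices hold raw UMI counts for each gene in each barcode. Per the file headers they are output of Cell Ranger 7.0.1. STAR and the genome build mm10 appear in the submitters' processing notes as well. How cells were called, which annotation served and whether intronic reads counted is not given in the sources used here. Total UMIs were 50741121 in the control and 55524355 in the NTD library.

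A cell filter (minimum of 500 genes and 1000 UMIs, mitochondrial share up to 10%) removed no barcode. Doublets were scored against simulated ones, and about the top 15% of each library (2870 control and 2930 NTD barcodes) was removed, a share chosen after seeing the data because an automatic threshold called none. Cells were clustered without ribosomal protein and mitochondrial genes (2000 variable genes, 30 components, 15 neighbours, leidenalg 0.10.2 at resolution 1) and named "-like" from marker lists. A marker passed in a cluster where at least 10% of its cells held it, at 1.5-fold or more the mean of other cells. A name needed at least 3 passing markers and 2 more than any other class. A cluster stayed unnamed if another class had more markers among its 10 top genes. A cluster with under 75% of its library's median UMIs in both libraries and no own marker among its 10 top genes also stayed unnamed, a rule set after the clusters were seen. Because names were rebuilt, classes may differ from the study's own.

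UMIs were summed per class and library and scaled to CPM by the class total, and log2 ratios have 0.5 counts added. A gene is measured where the cells compared hold 20 or more of its UMIs, both libraries summed. Intervals are exact Poisson, conditional binomial or Clopper-Pearson, and the interval code was tested on simulated data. Alternative scaling was TMM in edgeR 4.0.16, with R 4.3.3 and Python 3.11.15. Gene spans and coding lengths are from GENCODE M21 (GRCm38) and promoter sequences from RefSeq. The other alternatives changed the doublet step, cell filter, depth, clustering, minimum count and the choice of lowest-UMI barcodes.

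Genes named in the text are members of at least 50 CPM in progenitor-like cells: the 8 highest and 8 lowest by ratio between libraries, the 5 highest and 5 lowest against the lowest-UMI barcodes and the 6 with the largest spread across classes. Paralogs, stalk proteins and members with known developmental phenotypes were always named, with up to 2 genes of at least 20 CPM per other list. The members and lists were chosen with earlier results of these data known. A gene that this rule names is not reported here.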

Additional observations from a re-analysis of the deposited data

How the results depend on the processing

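No paired analysis was possible because each condition has 1 library, and for the same reason no replicate could be left out. No summary value over the members changed direction under the alternatives run. The medians and share differences given here moved by more than counting error, taken from the summed UMIs of the members. The count of members past 1.2-fold has no such error. The cause of each move was not tested. The median log2 ratio of NTD over control, 0.60 in progenitor-like and 0.77 in neuron-like cells, became 0.78 and 0.94 with TMM scaling, 0.67 and 0.85 scaled by the UMIs of other genes, 0.58 and 0.79 with doublets kept, 0.66 and 0.80 with the stricter cell filter, 0.67 and 0.78 in thinned cells, 0.59 and 0.73 at clustering resolution 0.5, 0.63 and 0.80 at resolution 2, and 0.57 and 0.72 as a mean over clusters. Clustered with ribosomal protein and mitochondrial genes, progenitor-like cells gave 0.59. Single clusters, added after seeing the data, gave 0.62, 0.57 and 0.53 for progenitor-like clusters 1, 3 and 4, and 0.68, 0.66 and 0.82 for neuron-like clusters 5, 13 and 18. The difference in ribosomal protein share, 4.33 points, was 4.39 without mitochondrial and haemoglobin genes, 4.005 with doublets kept, 4.43 with the stricter filter, 4.99 thinned, 4.59 at resolution 2 and 4.14 as a mean over clusters. The count of 78 members past 1.2-fold was 43 at 1.5-fold and 77 to 79 elsewhere. Against the lowest-UMI barcodes, the control median of -1.06 and the NTD median of -0.55 became -1.12 and -0.58 with the lowest 5% of barcodes, -0.87 and -0.48 with the lowest 20%, -1.53 and -0.85 with TMM, -1.09 and -0.57 without haemoglobin and mitochondrial genes, and -1.11 and -0.63 with doublets kept. Of 40 named members, 39 kept a positive ratio in progenitor-like cells under every alternative run for them, between 0.23 and 1.04. The exception was Rpl7l1, at -0.07 to 0.13. Some of the 40 were named for their ratios in these same cells, and every alternative reuses the same 2 libraries. The count is therefore a description and adds no support, and no such count was made over all genes. Members of few UMIs are the limit of depth: Rpl3l, Rpl39l and Rpl10l allow no ratio in progenitor-like cells.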
